A study of Mus musculus with 2 samples.

Results

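The authors' deposited annotation gives the name Stromal cells to 170 of 10050 annotated cells from YUMM1.7 melanomas, 85 in each of 2 libraries. Members were taken by that name alone, and the genes given to mark them were Col1a1, Col3a1 and Sparc. YUMM1.7 is a mouse melanoma line with activated Braf and loss of Cdkn2a. In both groups 100000 YUMM1.7 cells mixed with Matrigel were placed under the flank skin, and tumours were taken on day 19. The hosts were human APOE2 knock-in mice in one group and human APOE4 knock-in mice in the other, with no strain, sex, age or further treatment given. Each group is 1 library from 6 mice, of which each gave 10000 sorted cells to the pool, read by droplet sequencing of transcript 3' ends. The sort kept live cells (DAPI−) with the leukocyte surface protein CD45 (CD45+) after density centrifugation, so cells without that protein should have been removed. With 1 pool a genotype there is no replicate and no test. Genotype, pool and library cannot be told apart, and every 95% interval given covers counting error only.

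Fibroblasts build connective tissue: they secrete fibrillar collagens, small proteoglycans such as decorin and lumican, and matrix-binding proteins such as SPARC. Endothelial cells line vessels and carry PECAM1 and VE-cadherin (Cdh5), while pericytes and smooth muscle carry contractile proteins. Melanocytes arise from the neural crest, make pigment through Tyr, Tyrp1 and Dct, and can give melanomas that lose these genes and keep or gain mesenchymal ones such as Axl, Twist1 and Prrx1.

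The label was among the most deeply counted. Its cells held 1373005 UMIs (unique molecules counted) in APOE2 and 1216360 in APOE4, with medians of 16632 and 14184 UMIs and 4052 and 3849 genes per cell. Its median over both libraries was the third highest of the 26 labels, and the largest cells had 5895 and 5862 genes, just under the 6000 at which no annotated cell remained. The median mitochondrial share was 5.11% and 5.06%. No barcode sequence carried the label in both libraries, and 1 of the 170 barcodes was present in the other library under another or no name. A doublet caller marked 0% and 0.0557% of annotated cells, and only its scores are used here. Why it marked so few was not tested. By score alone, 13 stromal cells of APOE2 and 5 of APOE4 were among the highest 5% of their library.

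The share of annotated cells was 1.82% in APOE2 (85 of 4665, 95% Clopper-Pearson interval 1.46 to 2.25) and 1.58% in APOE4 (85 of 5385, 1.26 to 1.95). The ratio APOE4/APOE2 was 0.866, with an interval from 0.643 to 1.17 that holds 1. The CD45 gate can set this share.

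The marker check placed matrix genes far above every other label. Sparc (chromosome 11, 55394500 to 55423183, mm10 with GENCODE M21), a collagen-binding matrix protein, stood at 2980 CPM (counts scaled to 1000000 UMIs of the label) in APOE2 and 2230 in APOE4, and at most 11.9 in any other label. Col3a1 (chromosome 1, 45311538 to 45349706), the chain of type III collagen, stood at 4055 and 3531 CPM against at most 8.27. Col1a1 (chromosome 11, 94936224 to 94953042), a chain of type I collagen, stood at 1929 and 1576 CPM against at most 7.14. All 3 genes were thus present at a similar order of magnitude in both libraries and near 0 elsewhere. The clusters behind the labels were made from these counts, so this is a description and not a test.

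Single cells were less uniform than the sums. At least 1 UMI of Sparc was found in 95.3% of the cells, against 0.386% of cells under T and NK labels. For Col3a1 the shares were 75.3% and 0.429%, and for Col1a1 55.9% and 0.129%. Median depths differed, at 15686 UMIs for stromal cells and 3716 for T and NK cells. With every cell thinned to 2000 UMIs the shares were 94.6% against 0.275% for Sparc, 78.5% against 0.230% for Col3a1 and 51.0% against 0.0918% for Col1a1. Thinning left out 10 APOE2 and 11 APOE4 stromal cells and 153 of the T and NK cells. The T and NK shares stand in for background, whose source was not tested, and the stromal shares lay far above them at equal depth. Of the 170 cells, 93 carried all 3 genes. Another 7 carried none, and these held few molecules (median 1321 UMIs).

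The plot of marker lists by label sets these sums beside other cell types. The 20 fibroblast genes together stood at 16788 CPM in APOE2 and 15656 in APOE4, all 20 detected, and the next label, CD8+ T cells, reached 662 over both libraries. The pan-leukocyte list, which includes the CD45 gene Ptprc, stood at 1055 and 763 CPM, the lowest of the 26 labels, with 5716 in the next lowest. A cell was also scored by whether it held at least 3 UMIs from at least 2 genes of a list. By this rule 147 of 170 cells (86.5%) were positive for fibroblast genes, 72 in APOE2 and 75 in APOE4, and 1.71% of cells of other labels were.

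**Figure D1:**
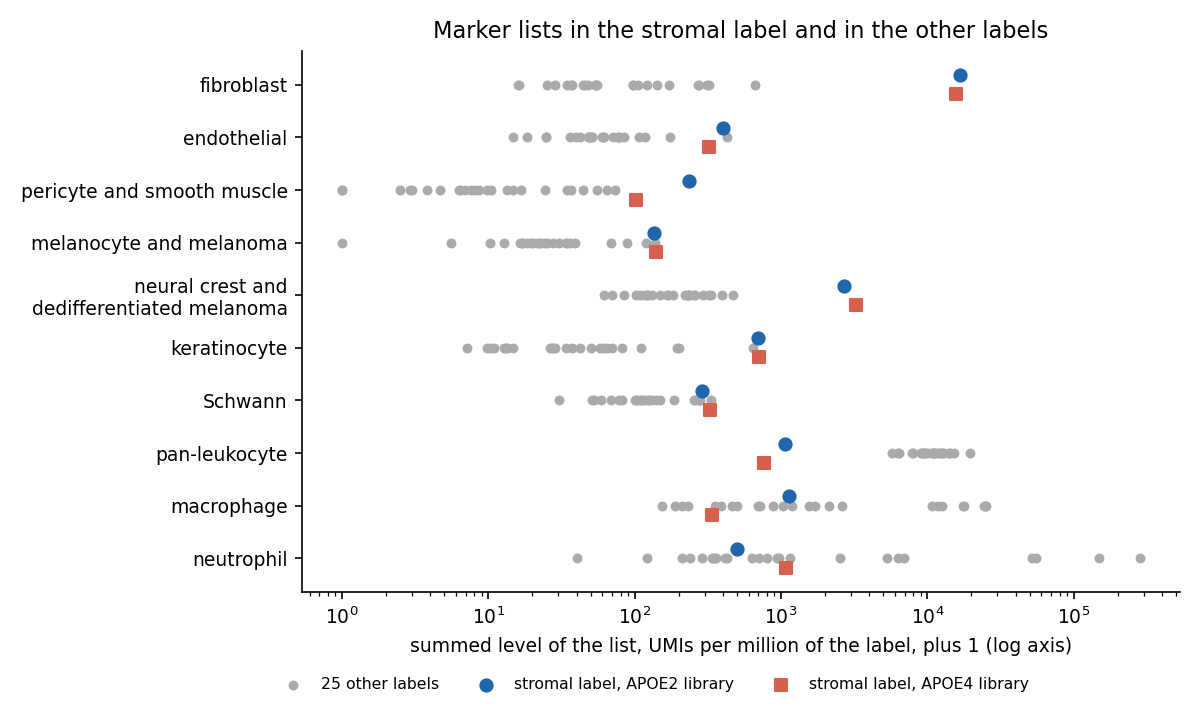
Summed level of each marker list in CPM plus 1 (log axis) for the stromal label in the APOE2 and APOE4 libraries and for the 25 other labels. The fibroblast list of the stromal label (16788 and 15656) lies above every other label, and its pan-leukocyte list (1055 and 763) lies below every other label.

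The genes most particular to the label were matrix genes and developmental regulators. The 30 genes with the highest ratio of level in the label to level in the next label included 10 collagen genes, with Col1a2 (2279 CPM over both libraries against at most 4.55) and Col3a1 in front. Small proteoglycans followed, with decorin (Dcn) at 1922 CPM against 5.95, biglycan (Bgn) at 2521 against 9.99 and lumican (Lum) at 574 against 2.37. Cd248, the endosialin of mesenchymal cells, led by ratio, at 129 CPM against 0.172. Mgp, an inhibitor of calcification, gave more molecules than any gene outside the ribosomal and mitochondrial ones, at 23718 CPM in APOE2 and 15696 in APOE4, and was found in 155 cells. The next most abundant was Spp1 (osteopontin), at 13194 and 15034 CPM in 157 cells, with 1589 CPM in the next label.

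Some of the same 30 genes are transcription factors. Prrx1 (chromosome 1, 163245119 to 163313710), a homeobox factor of limb and head mesenchyme, stood at 551 CPM in APOE2 and 747 in APOE4, with 2.28 in the next label. Pax3 (chromosome 1, 78101267 to 78197134), a factor of the neural crest, melanocytes and muscle precursors, stood at 80.1 and 84.7 CPM, with 0.376 in the next label. It was found in 43 cells of APOE2 and 41 of APOE4. Both factors were spread over many cells: the cell with the most UMIs held 2.64% of those of Prrx1 and 3.29% of those of Pax3.

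Across the 26 labels the levels most like that of Sparc, by Pearson's r of log2(CPM + 1), were those of Dcn (0.951), Tm4sf1 (0.934), Col1a2 (0.929), Prrx1 (0.923) and Col1a1 (0.922). Ptn, Nr2f1, Tfap2b and Lamb1 followed, down to 0.905 for Lamb1. The labels share libraries and free RNA, and 1 label holds most of each of these genes, so the values describe a ranking only. Tfap2b, another neural crest factor, stood at 138 and 154 CPM, and the orphan receptor Nr2f1 at 152 and 229 CPM.

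Few cells looked endothelial. The 18 endothelial genes summed to 401 CPM in APOE2 and 320 in APOE4, and pDCs (plasmacytoid dendritic cells) stood higher at 424. Most of the molecules came from Plvap (190 and 162 UMIs), a protein of fenestrated endothelium, and from the coreceptor Eng (145 and 140), which occurred in 109 cells. Pecam1 was found in 5.29% of stromal cells, below the 18.7% of T and NK cells (2.01% and 10.7% thinned). The rule of 3 UMIs from 2 genes was met by 82 cells (48.2%), 80 of which also met the fibroblast rule, and by 3.64% of cells of other labels. Once thinned it was met by 4 stromal cells (2.68%) and by 0.0459% of T and NK cells. Pecam1 and Cdh5 occurred together in 3 cells. The first, from APOE2, had 11 Pecam1, 15 Cdh5 and 18 Plvap UMIs and none of Col1a1 or Col3a1. The next, also from APOE2, had 8 Pecam1 and 12 Cdh5 UMIs with 30 of Egfl7 and 80 of Ccl21a, a lymphatic chemokine, and 112 of the myeloid gene Lyz2. The third, from APOE4, had 1 Pecam1 and 5 Cdh5 UMIs with 42 of Col3a1. Thus 2 of the 170 cells carried both genes at 8 or more UMIs each, both from APOE2.

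Pericyte and smooth muscle genes gave few molecules, though more than in other labels. The 14 genes summed to 233 CPM in APOE2 and 101 in APOE4, and Rgs5, Des, Myh11, Actg2 and Higd1b were at 0 in 170 cells. Acta2, smooth muscle actin, gave 165 UMIs in 20 cells of APOE2 and 27 in 9 cells of APOE4. Adipocyte, erythroid, T cell and NK cell lists stood between 0 and 10.8 CPM over both libraries. Of the 15 keratinocyte genes 11 were at 0, and the list's 695 and 705 CPM came mainly from galectin 7 (Lgals7), with 917 and 832 UMIs in 85.3% of cells.

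Pigment cell genes were mostly missing. Of 19 melanocyte and melanoma genes 10 were at 0 in 2589365 UMIs, among them the pigment enzymes Tyr, Tyrp1 and Dct, the antigen Mlana, and the factor Sox10. A count of 0 allows up to 1.16 CPM (3 counts). The rest of the list stood at 135 CPM in APOE2 and 138 in APOE4, and Pax3 gave most of it with 110 and 103 UMIs. Slc24a5, an exchanger of pigment granules, gave 27 and 28 UMIs, and Mitf, the master factor of melanocytes, 16 and 11. Skin resident Mø reached 137 CPM for the same list, so its sum does not set the label apart, whereas Pax3 was at 0 in T and NK cells with and without thinning. Thinned, 13.4% of stromal cells kept a Pax3 UMI, against 49.4% unthinned.

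Genes of the neural crest and of dedifferentiated melanoma were high instead. The 17 genes, all detected, summed to 2688 CPM in APOE2 and 3228 in APOE4, and the next label, Mø cluster 1, reached 465. Aqp1, a water channel, gave 768 and 1015 UMIs and was found in 83.5% of cells (61.7% thinned, against 0.0459% of T and NK cells). Sox4 gave 680 and 586 UMIs, Twist1, a factor of mesenchyme, 305 and 346, and the receptor kinase Axl 268 and 265. Sox9 gave 257 and 173, the intermediate filament nestin (Nes) 107 and 127, Tfap2a 35 and 56, and the nerve growth factor receptor Ngfr 1 and 0. The rule was met by 147 cells (86.5%), of which 137 also met the fibroblast rule, and by 16.6% of cells of other labels. Thinned, it was met by 85.9% of stromal cells and 1.19% of T and NK cells. Of the 84 cells with Pax3, 83 met the fibroblast rule and 81 held Col3a1. Matrix and neural crest transcripts were thus counted in the same droplets for most cells. Pax3 itself was at 0 in the 19 shallow cells of sub-cluster 5 and in 6 cells called fibroblast-like, both described below. In the 6 fibroblast-like cells the list still stood at 2331 CPM, and Prrx1 and Twist1 were found in all 6. These 6 cells held 2120 Col1a1 and 3307 Col3a1 UMIs, out of 2649 and 1917 Col1a1 UMIs and 5568 and 4295 Col3a1 UMIs in all APOE2 and all APOE4 cells. Several genes of the list, such as Prrx1, Twist1 and Axl, are also expressed by fibroblasts. The marker genes of the label were thus present, and so were neural crest genes that its name does not carry.

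One Y-linked gene was almost missing from most of the label. Eif2s3y, Kdm5d, Uty and Ddx3y lie close together on the short arm of Y, Eif2s3y between 1010543 and 1028847 with Kdm5d (897788 to 956786) and Uty (1096861 to 1245759) on its sides and Ddx3y at 1260771 to 1286629. Eif2s3y, a subunit of a translation initiation factor, stood at 66.4 CPM (64.5 to 68.3) over all other labels, between 47.4 and 109 in each. Under the stromal label it gave 16 UMIs in 11 cells of APOE2 and 3 UMIs in 3 cells of APOE4. In the 137 cells of sub-clusters 1, 2, 3 and 5 (described further on, and joined here after their values were seen) it gave 1 UMI in 2019995, or 0.495 CPM (0.0125 to 2.76). The interval lies far under the lowest other label.

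The neighbours did not share this. In the same 137 cells the demethylase gene Uty stood at 22.8 CPM (16.7 to 30.4), against 22.6 (21.6 to 23.8) in other labels, and Kdm5d at 16.3 (11.2 to 22.9) against 16.5 (15.6 to 17.5). The helicase gene Ddx3y stood at 75.7 CPM (64.2 to 88.7) against 140 (138 to 143). Xist was at 0. In sub-cluster 6 Eif2s3y stood at 57.1 CPM (22.9 to 118) and was found in 5 of 6 cells, and in sub-cluster 4 at 24.6 CPM (12.3 to 44.1), in 8 of 27 cells. The 84 cells with Pax3 gave 3 Eif2s3y UMIs, and 51 of them held Ddx3y. Eif2s3y was not among the genes used to form the sub-clusters, but the 137 cells were joined after its values were seen. Its rank in them is thus no independent support. Over the whole label Eif2s3y stood at 7.34 CPM (4.42 to 11.5). Among genes measured in other labels only Dock8 and Was, both of haematopoietic cells, lay lower in the 137 cells against their lowest other label, and the ranks just after Eif2s3y were held by leukocyte genes such as Lcp1, Inpp5d and Laptm5. Whether the inoculated YUMM1.7 cells lack Eif2s3y was not tested, since no library of the line was used.

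**Figure D2:**
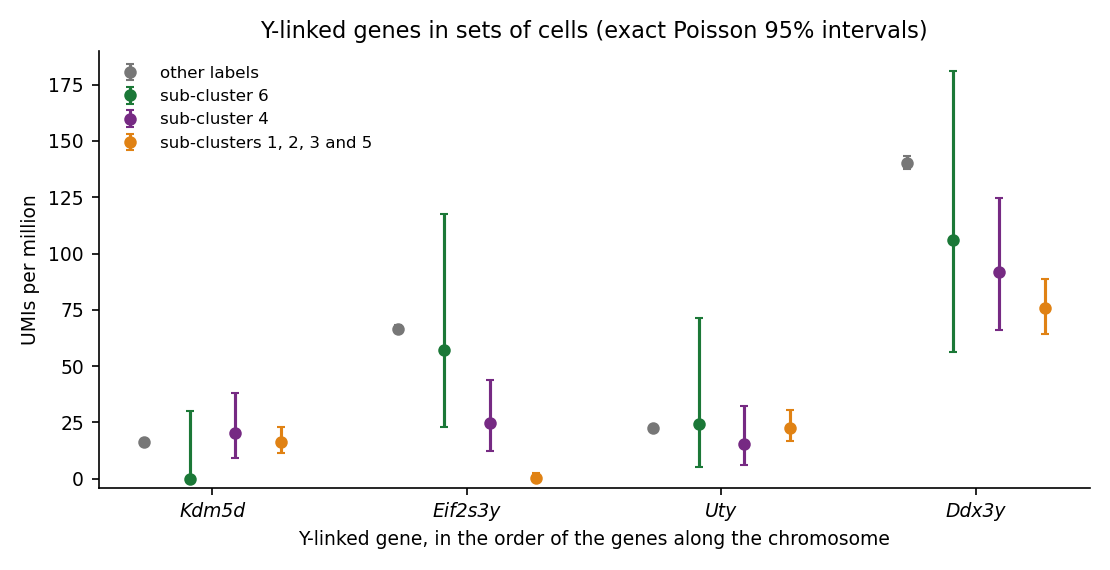
Level in CPM of 4 neighbouring Y-linked genes in groups of stromal cells and in the other labels, with exact Poisson 95% intervals. Eif2s3y drops to 0.495 in the 137 cells of sub-clusters 1, 2, 3 and 5 and stands at 57.1 in sub-cluster 6 and 66.4 in other labels, while Uty and Kdm5d are alike in the 137 cells and in other labels.

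Braf, a kinase gene engineered in the line, gave 38 and 40 UMIs. Cdkn2a, a cell cycle inhibitor gene lost in it, gave 1 UMI in APOE2 and 4 in APOE4. A 3' tag can lie outside a deleted part, so these counts check nothing about the alleles. Apoe, here the mouse gene of the reference where the hosts carry the human one, gave 36 UMIs in 9 cells of APOE2 and 26 in 9 cells of APOE4. It was found in 10.6% of stromal cells (2.01% thinned) against 5.96% of T and NK cells (3.40% thinned). At equal depth the share of stromal cells thus lay below that of T and NK cells, and 33.9% of the UMIs lay in 1 cell. By the sub-clusters described next, Apoe had 21 UMIs in 7 of 57 cells of sub-cluster 1, 29 in 6 of 27 cells of sub-cluster 4 and 12 in 5 of the 6 cells of sub-cluster 6, and none in sub-clusters 2, 3 and 5. The source of these molecules was not tested.

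Clustering of the 170 cells alone gave 6 sub-clusters. The genes that define them were chosen on the same cells, so they are descriptions. Sub-cluster 1 (57 cells) was led by Apod, a lipid carrier, and by interferon-induced genes such as Cxcl10 and Iigp1, with Apod in 52 cells and Penk (proenkephalin) at 1182 CPM. Sub-cluster 2 (32 cells) was led by cell division genes, among them Ccna2, Cdc20 and Mki67, the latter in 21 cells. Sub-cluster 3 (29 cells) was led by Crabp2, a retinoic acid carrier, and Tnn, a tenascin, at low folds (3.51 and 2.42), and had the most Spp1, at 23804 CPM. These 3 groups shared Pax3 (42.5 to 124 CPM), Aqp1 (596 to 1006) and Prrx1 (431 to 895), and none of them held Sfrp2 or Mfap5.

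**Figure D3:**
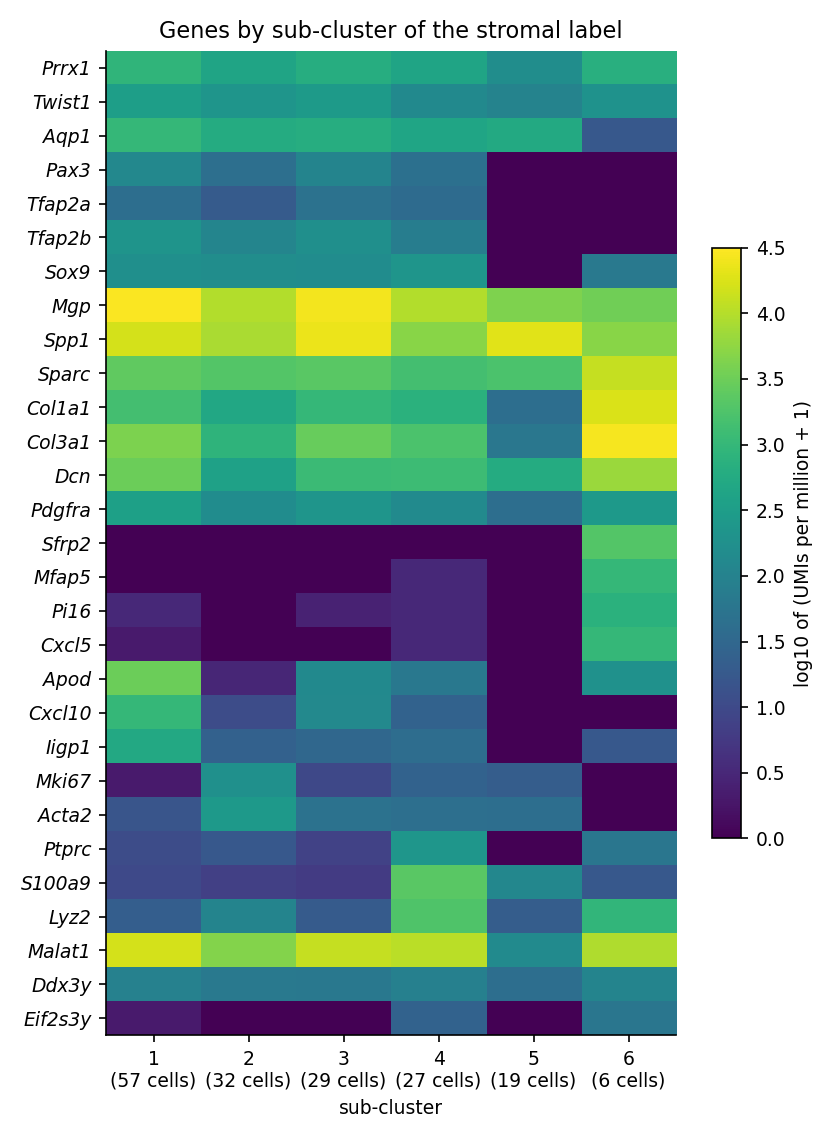
Level of marker genes in the 6 sub-clusters of the stromal label, with colour on a log10 scale of CPM plus 1. Col1a1 is highest in sub-cluster 6 (17282), where Pax3 is at 0, and S100a9 is highest in sub-cluster 4 (2194).

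Sub-cluster 6, of 6 cells (4 from APOE2 and 2 from APOE4), was the one that the fixed fibroblast markers name, and is called fibroblast-like. Its leading genes were Sfrp2, a secreted Wnt modulator, Abi3bp and Cpxm1, with the fibroblast markers Mfap5 and Pi16 among the top 10. Col1a1 stood at 17282 CPM there, against 490 to 1440 in sub-clusters 1 to 3. Col3a1 stood at 26958 CPM and Sparc at 12627. Each of the 6 cells held between 94 and 677 Col1a1 UMIs and between 8 and 37 Mfap5 UMIs. Pax3, Tfap2a and Tfap2b were at 0, and Aqp1 stood at 16.3 CPM. These cells had Pax3 and Eif2s3y reversed relative to sub-clusters 1 to 3. Among the APOE2 cells 1 also held 113 Lyz2 and 154 Cd74 UMIs, where the other 5 held no Lyz2 and at most 2 Cd74. The same 6 cells formed 1 group at the finer resolution of 8 sub-clusters.

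Sub-cluster 4 (27 cells) carried leukocyte transcripts beside the matrix ones. S100a8 and S100a9, alarmins of neutrophils, and Il1b led it. The pan-leukocyte list stood at 3168 CPM in it against 370 to 543 in sub-clusters 1 to 3, with Col1a1 at 739 CPM and Pax3 at 44.8. These are sums over cells: Col1a1 was found in 12 of the 27 cells, Col3a1 in 17, Sparc in 25 and Pax3 in 11. Ptprc was found in 24 of the 27 cells. Over the whole label it was found in 21.2% of cells (7.38% thinned) against 98.8% of T and NK cells (96.0% thinned), 18 cells in each library. Of the 27 cells, 10 were among the highest 5% by doublet score, against 8 of the 143 others. At the finer resolution most of the group fell into 16 cells led by neutrophil genes and 11 cells led by C1qa, C1qb, C1qc and MHC class II genes, the latter 8 from APOE2 and 3 from APOE4.

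Sub-cluster 5 (19 cells) stayed unnamed. It had a median of 2232 UMIs and 0.790% mitochondrial UMIs, and Malat1, a nuclear RNA, was found in 5 of its cells at 142 CPM, against 12724 CPM in sub-cluster 3. It still held Spp1 at 19683 CPM and Sparc in 15 of its 19 cells. Over the whole label 30 cells (17.6%) had under 1% mitochondrial UMIs, and 43.3% of these held Malat1. In the cells of other labels under the same limit, 99.5% held Malat1 at a lower median depth (1758 against 2114 UMIs). Of these 1533 cells 813 were M-MDSC 1 and 257 G-MDSC 1, whose median mitochondrial shares were 0.32% and 0.28%. The compared cells thus differ in type, and a low share is usual in those labels.

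Between the libraries, most genes of the label lay close together. The APOE4/APOE2 ratio of the summed counts was taken for the 9033 genes with at least 20 UMIs. Its median log2 was 0.02. Past 2-fold with an interval that leaves out 1, 2.49% of these genes were higher in APOE4 and 2.65% were lower, counting error only. The plot of ratios by list gives each list against this background.

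Interferon-induced genes were higher in APOE4 across whole lists. Of 24 measured genes of the type I interferon response all 24 were higher, 21 of them past 2-fold, with a median log2 ratio of 2.05. Of 16 genes of the interferon gamma response all 16 were higher, 12 past 2-fold, with a median of 1.99. Of 16 genes of MHC class I presentation all 16 were higher, 8 past 2-fold, with a median of 1.01. Among all genes 2.49% were past that limit in this direction. These lists were written with earlier results of the same libraries known, so their direction is not independent evidence.

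**Figure D4:**
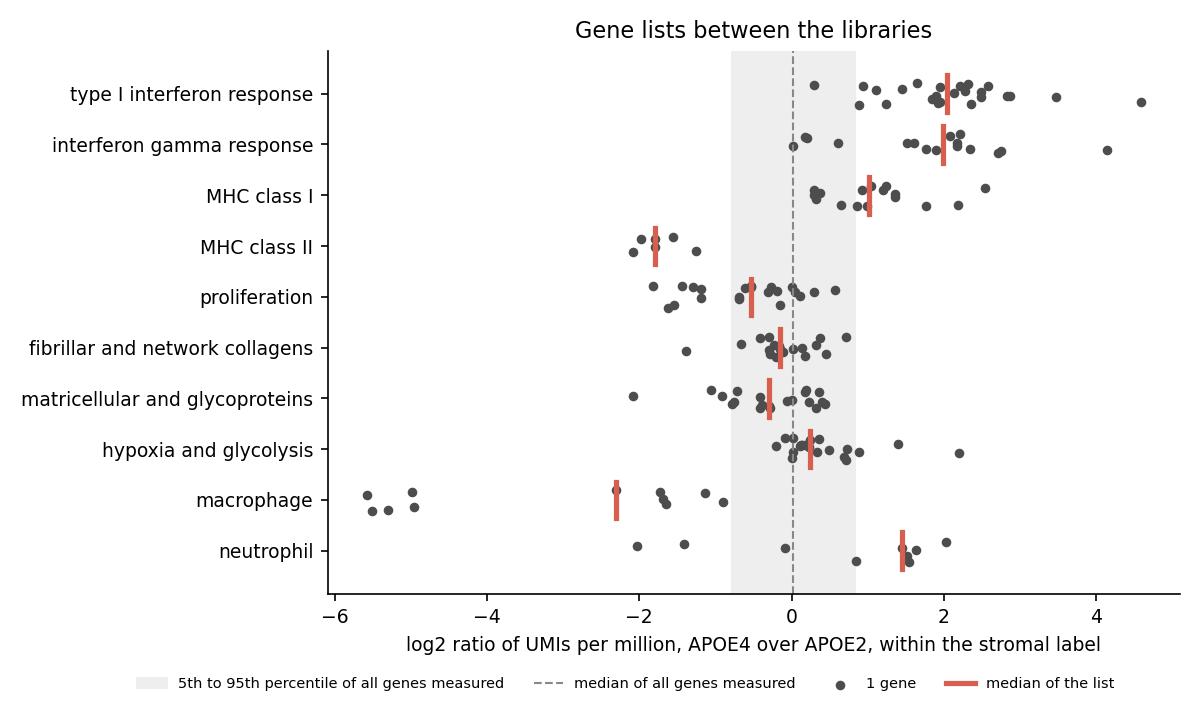
Log2 ratio APOE4/APOE2 of each measured gene of the stromal label, by list (points), with the list median (red) and the 5th to 95th percentile of all measured genes (grey). The type I interferon (2.05), interferon gamma (1.99) and MHC class I (1.01) lists lie above 0 with all their measured genes, and the macrophage (−2.31) and MHC class II (−1.80) lists lie below.

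Isg15, a ubiquitin-like protein, had 115 UMIs in 22 cells of APOE2 and 495 in 50 cells of APOE4 (83.8 and 407 CPM, ratio 4.86, 3.96 to 6.00). The guanylate-binding and immunity-related GTPases were higher too: Igtp stood at 16.8 and 109 CPM (6.53, 4.17 to 10.7), Irgm1 at 24.0 and 122 (5.10, 3.48 to 7.67), Gbp3 at 24.0 and 89.6 (3.73, 2.51 to 5.68) and Iigp1 at 53.2 and 359 (6.76, 5.26 to 8.78). Each of these occurred in more cells of APOE4 than of APOE2, with Igtp in 28 against 10. Gbp and related genes are near-identical families, so reads may be split between members.

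Among MHC class I genes, B2m, the shared light chain, stood at 1022 and 2413 CPM (2.36, 2.22 to 2.52) and the heavy chain H2-D1 at 577 and 1486 CPM (2.58, 2.37 to 2.80), in 64 and 73 cells. H2-Q4 gave 22 and 89 UMIs (4.57, 2.84 to 7.65), a log2 ratio of 2.19 that was as low as 0.72 under other counting. Further genes on the list of the 10 highest ratios were Gm4951, a GTPase gene (6.65, 4.07 to 11.5), and the ferroxidase gene Cp (3.16, 2.58 to 3.89, in 30 and 45 cells). For 2 of the 10, single cells decided the size. Cxcl10, a T cell attracting chemokine, had 193 and 795 UMIs (4.65, 3.97 to 5.47) in 18 and 17 cells, and 53.5% of all its UMIs lay in 1 APOE4 cell, without which the ratio was 1.58. Ifih1, a sensor of double-stranded RNA, had a ratio of 5.01 (3.16 to 8.25), and 2.45 without the APOE4 cell that held 42.4% of its UMIs.

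Cell by cell the distributions were shifted and overlapped. Per 10000 UMIs of a cell, the type I interferon genes had a median of 2.86 (0 to 135) in the 85 APOE2 cells and 12.1 (0 to 214) in the 85 APOE4 cells. The medians were 1.35 and 4.70 for interferon gamma genes and 15.4 and 51.9 for MHC class I genes. Without sub-clusters 4 and 6 they were 2.39 and 12.1, 1.16 and 3.84, and 14.5 and 41.4. The difference was thus as large in cells outside the groups with leukocyte transcripts and with fibroblast-like genes for the first list. The pan-leukocyte list went the other way, at 4.54 in APOE2 and 3.84 in APOE4.

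The level of interferon genes was uneven among the sub-clusters, and these genes helped to define sub-cluster 1. There the type I list stood at 1272 CPM in 24 APOE2 cells and 4010 in 33 APOE4 cells. It stood at 329 and 709 CPM in sub-cluster 2, 355 and 1165 in sub-cluster 3, and 868 and 2410 in sub-cluster 4. In sub-cluster 5, of shallow cells, it stood at 688 and 527 CPM on 13 and 16 UMIs, and in the fibroblast-like cells at 614 and 818. The type I list was thus higher in APOE4 in every sub-cluster but sub-cluster 5. MHC class I genes stood higher in APOE4 in all 6, with 5043 and 9849 CPM in sub-cluster 1 and 2923 and 3028 in sub-cluster 6. The interferon gamma list stood at 1567 and 4106 CPM in sub-cluster 1 but at 427 and 417 in sub-cluster 3 and at 212 and 151 in sub-cluster 6. At the finer resolution the sub-cluster led by Cxcl10 and Iigp1 held 6 APOE2 and 20 APOE4 cells. Those genes differ between the libraries, so no share is read from this count.

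**Figure D5:**
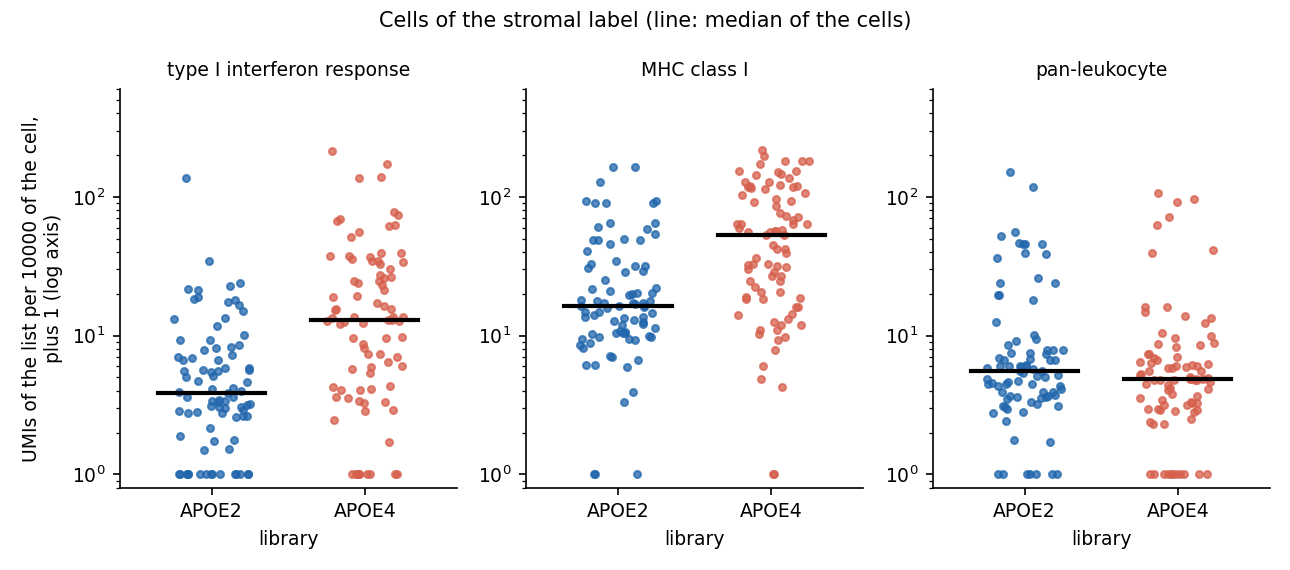
UMIs of gene lists per 10000 UMIs plus 1 (log axis) in each of the 85 APOE2 and 85 APOE4 stromal cells, with medians as lines. Before 1 is added the medians are 2.86 and 12.1 for type I interferon genes and 15.4 and 51.9 for MHC class I genes, and the ranges overlap.

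The direction was not particular to the label. In all 19 labels with at least 50 cells in each library the medians of the 3 lists were above 0. The stromal label ranked next to the highest in each list. For type I interferon genes pDCs came first at 2.39 and Monocytes 2 last at 0.37, and for interferon gamma and MHC class I genes M-MDSC 1 came first at 3.07 and 1.54. The level itself was low in stromal cells for the type I and MHC class I lists. The type I list stood at 711 and 2494 CPM, the fifth lowest of 26 labels over both libraries, against 31440 in M-MDSC 2. MHC class I genes stood at 3084 and 7018 CPM, rank 25 of 26 from the highest. The interferon gamma list stood at 619 and 2130 CPM, rank 13 of 26, so its level was not low.

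Promoter sequence is shown for 3 of the genes higher in APOE4, since a known element of interferon-induced genes is the interferon-stimulated response element. The core searched was GAAANNGAAA on both strands (TTTCNNTTTC on the other) in windows of 250 bases before to 50 after each start from RefSeq, build GRCm38.p6. It was in 1131 of 32851 windows (3.44%), or in 1079 of 27025 genes (3.99%). Of the 10 genes with the highest ratios 8 had a window, and 5 of these held the core: Cxcl10, Gbp3, Ifih1, Igtp and Irgm1. It was in 11 of 18 genes of the type I list, 11 of 15 of the interferon gamma list, 4 of 15 of MHC class I and 0 of 14 collagen genes. A match is a run of letters and not a shown site. The 250 bases before the start follow 5′ to 3′ on the gene's strand, with every base of a match in capitals. The matches begin 34 bases before the start of Igtp (chr11:58199306-58199555, + strand), 213 before that of Cxcl10 (chr5:92348890-92349139, − strand) and 30 before that of Irgm1 (chr11:48871421-48871670, − strand), where 2 matches overlap.
Igtp: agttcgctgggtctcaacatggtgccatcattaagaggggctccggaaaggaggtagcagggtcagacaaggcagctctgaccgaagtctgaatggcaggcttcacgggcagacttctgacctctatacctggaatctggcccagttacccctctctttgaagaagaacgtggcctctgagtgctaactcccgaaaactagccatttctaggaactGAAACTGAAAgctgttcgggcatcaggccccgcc
Cxcl10: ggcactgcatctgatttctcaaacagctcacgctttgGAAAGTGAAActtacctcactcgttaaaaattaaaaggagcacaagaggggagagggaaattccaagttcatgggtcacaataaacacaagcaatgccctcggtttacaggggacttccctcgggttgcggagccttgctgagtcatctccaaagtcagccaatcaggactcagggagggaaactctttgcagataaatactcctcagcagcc
Irgm1: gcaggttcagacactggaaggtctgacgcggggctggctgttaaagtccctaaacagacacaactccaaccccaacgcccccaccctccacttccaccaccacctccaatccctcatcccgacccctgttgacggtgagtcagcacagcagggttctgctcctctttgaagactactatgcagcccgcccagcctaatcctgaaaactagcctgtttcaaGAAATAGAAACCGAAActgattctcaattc

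The 10 lowest ratios included matrix genes and Acta2, and several rested on few cells. Ctgf, a matricellular growth factor partner, had 276 UMIs in 28 cells of APOE2 and 58 in 8 cells of APOE4, so it stood 4.22-fold lower (3.17 to 5.70) in APOE4. Acta2 stood 5.41-fold lower (3.59 to 8.46). Mmp3 (stromelysin) had 752 UMIs in 37 cells and 280 in 26 cells and stood 2.38-fold lower, and Igfbp7, an insulin-like growth factor binder, stood 2.18-fold lower with 38 and 29 cells. Ogn (mimecan) stood 2.37-fold lower, and the selenium carrier Sepp1, at 1011 CPM in Mø cluster 2 and 211 in the label, stood 1.86-fold lower.

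The other 4 of the 10 lowest ratios rested largely on the fibroblast-like cells. Cxcl5, a neutrophil chemokine, had 123 UMIs in 3 cells of APOE2 and 1 in APOE4, and 2 of those 3 cells were fibroblast-like ones with 78 and 44. Mfap5, a microfibril protein, had 105 and 20 UMIs, in 4 and 3 cells. Gpx3, a secreted peroxidase, had 108 and 22 UMIs, in 6 and 3 cells. Complement C3 had 139 and 44 UMIs, with 62.8% in 1 APOE2 cell. Without the 6 fibroblast-like cells the log2 ratio of Cxcl5 was 0.12, that of Mfap5 1.702 and that of C3 2.04. There remained 1 and 1 UMIs of Cxcl5 and 0 and 1 of Mfap5, too few to give a direction. C3 kept 5 UMIs in 4 APOE2 cells and 19 in 9 APOE4 cells, and Gpx3 kept 4 and 1 UMIs.

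Matrix lists differed little between the libraries. Of 18 collagen genes 7 were higher and 11 lower in APOE4, 1 past 2-fold (Col14a1), with a median log2 ratio of −0.15, and the median was 0.19 without the fibroblast-like cells. Col1a1 was 1.22-fold lower and Col3a1 1.15-fold lower in APOE4, and without the single APOE2 cell with the most UMIs the ratios were 1.08 and 1.00. The 20 matricellular genes had a median of −0.29 with 8 higher and 12 lower, and 2 past 2-fold, Ctgf and Fbln1. Of all 9033 measured genes 4274 were lower, and 2.65% were lower past 2-fold. Mgp was 1.51-fold lower in APOE4 (1.48 to 1.54), found in 74 and 81 cells, and Dcn was 1.53-fold higher (1.45 to 1.62).

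Leukocyte lists were uneven as well. The 11 macrophage genes were all lower in APOE4, 10 past 2-fold (median −2.31), and Mrc1, C1qa, C1qb and C1qc were the most uneven. Few cells held high levels of this list. Scaled to cell depth as for the interferon genes, its medians over cells were 0.58 in APOE2 and 0 in APOE4. The upper quartiles were 1.53 and 0.94, and the highest cells had 187 and 272. The highest APOE2 cells after the first had 171, 106 and 78.4. All 6 measured MHC class II genes were lower past 2-fold (median −1.80), with the invariant chain Cd74 at 1476 and 331 UMIs. Medians over cells were 0.90 and 0.57 for the class II list, and the highest cells 249 and 443. Of all measured genes 2.65% were lower and 2.49% higher past 2-fold. Sub-cluster 4 held most of both lists, at 3598 CPM of macrophage genes and 7846 CPM of MHC class II genes against at most 136 and 298 in sub-clusters 1 to 3. Sub-cluster 6 stood at 1663 and 3220 CPM, where 1 APOE2 cell held nearly all of the Lyz2 and Cd74 UMIs. Without cells that hold a Ptprc UMI the MHC class II median was −0.091. Of 9 neutrophil genes 6 were higher and 3 lower, 5 and 2 of them past 2-fold (median 1.45), with S100a9 at 283 and 719 UMIs. Of these 719 UMIs, 382 lay in 1 APOE4 cell. Over cells the neutrophil medians went the other way, at 0.32 in APOE2 and 0 in APOE4. The highest cells had 400 and 319. Among the defining markers Ptprc itself was found in 18 cells of each library. The part of such cells in other ratios was not tested beyond these values.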

How the data were processed

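Each deposited matrix holds unscaled counts of UMIs for every gene in every barcode, which the authors made with Cell Ranger 3.0.1 per the file headers, on build mm10 per the submitters' processing notes. The annotation deposited by the authors, for which the submitters' processing notes name Seurat 3.0.2, gives each cell its label, its UMI count and its percent of mitochondrial UMIs. The naming and filtering of cells and the use of strand are steps not given in sources used here. For 5167 annotated cells the matrix total exceeded the annotation's count, by at most 241 UMIs, and matrix counts were used throughout.

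UMIs were summed per label and library and divided by the label's total (CPM). Single genes carry exact Poisson 95% intervals, ratios exact conditional binomial ones and shares Clopper-Pearson ones. List ratios used genes with at least 20 UMIs, and counts of a gene at 0 in a library had 0.5 added in both. Thinning drew 2000 UMIs per cell without replacement (seed 0). Sub-clusters used scanpy 1.11.5: counts scaled to 10000, 2000 variable genes, 20 components, 10 neighbours and Leiden resolution 0.5. Doublet scores came from Scrublet in scanpy, and no cell was removed by them. Other tools were Python 3.11.15, numpy 2.4.6, scipy 1.17.1 and pandas 2.3.3. The ratio and its interval were tested on simulated counts.

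Named genes are the 30 with at least 200 UMIs and the highest ratio to the next label, the 10 highest and 10 lowest library ratios ranked by the interval bound nearest to 1 (at least 100 UMIs and 10% of the level of the highest label, leaving out haemoglobin, ribosomal, receptor segment, sex-linked and mitochondrial genes), the 4 most counted of each list, Apoe, the engineered and sex-linked genes, and the 10 most like Sparc. Other genes named in the text were chosen after their values were seen. Members, lists and rules were chosen with earlier results of these data known. Of the listed genes Trac, Ighm and Mx2 were not analysed here, and some genes that the rule names are not reported here. Alternatives tried were per-cell means, thinning, other rules and minimums, and leaving out cells by mitochondrial share, doublet score, Ptprc or sub-cluster.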

Additional observations from a re-analysis of the deposited data

Results flagged for a closer look

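The 702 barcodes outside the annotation enter no comparison above. Of these, 40 (5.70%, 4.10 to 7.68) held at least 10 UMIs of Col1a1, Col3a1 and Sparc together, 21 in APOE2 and 19 in APOE4, against 7 of 9880 annotated cells of other labels (0.0709%). They were large, with a median of 36577 UMIs and 6398 genes. Of the 40, 26 had at least 6000 genes and 14 had at least 10% mitochondrial UMIs, and 34 held at least 3 pan-leukocyte UMIs. Pax3 was found in 25 of them, and these 25 gave 5 Eif2s3y UMIs (4.70 CPM, 1.53 to 10.97). The source of these barcodes was not tested. The 170 cells of the label thus leave out deeper barcodes with the same marker genes.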

How the results depend on the processing

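No paired analysis was possible because each genotype has 1 library. Of the alternatives, 2000 UMIs as a minimum for shares and leaving out the fibroblast-like cells, sub-cluster 4 or cells under 1% mitochondrial UMIs were chosen after seeing the data. Recomputed main results stayed within their interval (counts of genes, near the first count) in 121 cases, moved in 26 and took the other sign in 2. Among the other recomputed results 305 stayed, 48 moved and 3 took the other sign.

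As a mean over cells the fibroblast list stood at 14114 CPM, the endothelial at 320, the neural crest at 2778 and the pan-leukocyte at 1111. With 5 UMIs from 3 genes the rule gave 20.6% endothelial, 8.82% melanocyte and 27.1% pan-leukocyte cells. The first rule, of 3 UMIs from 2 genes, gave 2.68%, 0% and 16.8% with thinned cells. The type I interferon median was 3.10 without Ptprc cells, and the interferon gamma median 2.52 there and 2.48 under 5% mitochondrial UMIs. The MHC class II median was −0.32 as a mean over cells, −0.55 thinned, −0.68 without the highest doublet scores, −0.091 without Ptprc cells and −2.52 with at least 1% mitochondrial UMIs. The hypoxia median turned to −0.088 as a mean over cells and −0.097 thinned, and was 0.032 without Ptprc cells and 0.072 with at least 1% mitochondrial UMIs. The collagen median was 0.19 without the fibroblast-like cells, where the log2 ratios of Cxcl5 (0.12), Mfap5 (1.702) and C3 (2.04) took the other sign, the first and the second on at most 1 UMI a library. Over 11 settings the log2 ratios of single genes ranged from 0.72 to 3.02 for H2-Q4, 0.90 to 4.31 for Cxcl10, 1.22 to 3.47 for Ifih1, 2.38 to 3.82 for Iigp1, 2.47 to 4.34 for Igtp, 2.23 to 4.41 for Gm4951, 2.29 to 3.12 for Irgm1, 1.61 to 3.41 for Gbp3 and 1.09 to 1.84 for Cp. Those of lower genes ranged from −4.29 to −1.74 for Acta2, −3.54 to −1.99 for Ctgf, −6.03 to −1.30 for Gpx3, −1.36 to −0.47 for Ogn and −1.10 to −0.27 for Sepp1. Past 2-fold, 225 genes were higher and 239 lower. These were 57 and 46 thinned and 118 and 110 with a minimum of 50 UMIs, both with fewer molecules or genes counted, and 157 were lower without the highest doublet scores. For the rest the cause was not tested. With 170 cells and 1 library a genotype, depth limits single genes to sums over cells.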

Other observations

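Of 21 proliferation genes 5 were higher and 16 lower in APOE4, 7 of them past 2-fold, with a median log2 ratio of −0.53. Of all 9033 measured genes 4274 were lower, 2.65% past 2-fold, and the median was 0.024. The largest differences were in genes of DNA replication, with Mcm5 at −1.83, Mcm2 at −1.62, the reductase gene Rrm2 at −1.55 and the sliding clamp gene Pcna at −1.44. The other genes were mixed. Ccnb2 stood at 0.57 and Ube2c at 0.00, but Top2a at −1.19, Cdk1 at −0.69, Ccna2 at −0.69 and Mki67 at −0.53. Tyms, also of DNA synthesis, stood at −0.53, so no split between replication and mitosis is read from the list. Mki67 was found in 18 cells of APOE2 and 16 of APOE4.

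Of 16 genes that answer to MAP kinase signalling 12 were higher and 4 lower, 1 past 2-fold (Etv5, 24 and 43 UMIs, ratio 2.02, 1.20 to 3.48), with a median of 0.34. Of all measured genes 4759 were higher, 2.49% past 2-fold, and their 5th to 95th percentile ran from −0.78 to 0.84. Of 20 hypoxia and glycolysis genes 18 were higher, with a median of 0.24 that changes sign under other counting. Car9, a carbonic anhydrase, had 14 and 57 UMIs (ratio 4.60, 2.53 to 8.93) in 6 and 10 cells.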
